A study of Mus musculus with 4 samples.

Results

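The MYC, MAX and MXD network is a family of transcription factors that share MAX, or the related MLX, as the partner they need to bind DNA. The 10 genes described here are Myc, Mycn, Max, Mxd1, Mxi1, Mxd3, Mxd4, Mnt, Mga and Mlx. They were picked by name, and all 10 were found among the 50600 genes listed in each file. The RNA came from primary T-cell samples of C57BL/6NJ mice. The labels give 1 group of 4 biological replicates, no treatment, and 1 donor identifier for all 4. Age and developmental stage are recorded as unknown, and sex as not collected. Names in the file headers add Th0, activated and 48 h, which the labels do not state. Since all samples belong to that group, the comparisons are between genes and between replicates. Every p-value rests on the spread among 4 samples that may share an animal, with that spread pooled in part over genes.

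As background, MYC pairs with MAX through a basic helix-loop-helix leucine zipper and activates genes that carry the E-box CACGTG. The MXD proteins and MNT compete for MAX and bring the SIN3 and histone deacetylase corepressors to the same sites. MGA also binds MAX and is the scaffold of a Polycomb complex named PRC1.6, while MLX pairs with the glucose-responsive Mondo factors as well as with MXD1, MXD4 and MNT. In T cells, MYC is induced by antigen receptor signals and drives growth, ribosome production and glycolysis.

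Assigned counts totalled 45110199 to 127755788 per library, a 2.83-fold range, so 3 counts, the limit that a count of 0 allows, correspond to 0.0235 to 0.0665 CPM (counts scaled to the library's assigned total; counting error only). All 10 T cell markers lay above 1 CPM, Cd4 among them at 931 CPM ± 9.79 (SD, n = 4), while of the CD8 markers Cd8a stood at 0.279 CPM ± 0.143 and Cd8b1, called above 1 CPM, at 9.62 ± 0.749. Of 48 markers of other cell types, counting those of CD8 and gamma-delta T cells, 8 lay above 1 CPM. The summed level of these lists was at most 10.7 CPM in any library, apart from the stromal list at 28.9 to 32.2 CPM, of which Pecam1 made up 26.95 CPM ± 1.52. Besides Cd8b1 and Pecam1, the markers above 1 CPM included dendritic Zbtb46 at a mean of 5.76 CPM and stromal Pdgfrb at 2.90. The others were myeloid Cd68 at 2.69 and Adgre1 at 2.6, NK Eomes at 2.34 and B cell Ebf1 at 1.53. Other markers of these lists, such as Lyz2, Itgax, S100a8, S100a9, Hbb-bs, Pf4 and Cdh5, had no count. The part of such cells in the levels below was not tested.

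Some of the network genes hold the network's own binding word in their promoters, which the choice by name did not use. Promoters from RefSeq (build GRCm38.p6, 250 bases before the start site to 50 after it) were matched for 9 of the 10 members, all but Myc, giving 11 promoters because Mxi1 has 3 annotated starts. CACGTG, which reads the same on both strands, was present in the promoters of Max, Mlx, Mnt and Mxd4, that is in 4 of 9 members. The same 6 letters occurred in 7.15% of the 32851 promoters in the table, in 8.09% of its 27025 genes and in 12.2% of its 8596 genes above 1 CPM. A match is a description of letters, not a bound site. These 4 promoters are shown because they hold the binding word of the network itself, which is in capitals. They lie at chr12:76962199-76962498 (Max, minus strand), chr11:101087040-101087339 (Mlx, plus strand), chr11:74830674-74830973 (Mnt, plus strand) and chr5:34187661-34187960 (Mxd4, minus strand), and each reads 5′ to 3′ on the strand of its gene.
Max: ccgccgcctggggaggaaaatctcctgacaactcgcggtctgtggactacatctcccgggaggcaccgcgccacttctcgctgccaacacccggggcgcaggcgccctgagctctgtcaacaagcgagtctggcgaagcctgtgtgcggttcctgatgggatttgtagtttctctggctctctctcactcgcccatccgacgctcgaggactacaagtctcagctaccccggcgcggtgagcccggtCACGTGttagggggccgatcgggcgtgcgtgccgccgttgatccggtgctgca
Mlx: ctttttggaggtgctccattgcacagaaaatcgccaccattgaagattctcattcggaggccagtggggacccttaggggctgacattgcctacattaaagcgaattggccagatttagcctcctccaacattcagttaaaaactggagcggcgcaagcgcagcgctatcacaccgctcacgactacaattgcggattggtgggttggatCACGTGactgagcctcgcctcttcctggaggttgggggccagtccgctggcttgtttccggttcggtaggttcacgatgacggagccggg
Mnt: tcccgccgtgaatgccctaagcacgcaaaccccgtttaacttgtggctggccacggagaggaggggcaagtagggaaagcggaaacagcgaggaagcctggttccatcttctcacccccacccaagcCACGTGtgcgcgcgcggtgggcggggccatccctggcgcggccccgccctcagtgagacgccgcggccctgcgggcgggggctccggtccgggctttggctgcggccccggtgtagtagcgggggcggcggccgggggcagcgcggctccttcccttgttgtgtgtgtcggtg
Mxd4: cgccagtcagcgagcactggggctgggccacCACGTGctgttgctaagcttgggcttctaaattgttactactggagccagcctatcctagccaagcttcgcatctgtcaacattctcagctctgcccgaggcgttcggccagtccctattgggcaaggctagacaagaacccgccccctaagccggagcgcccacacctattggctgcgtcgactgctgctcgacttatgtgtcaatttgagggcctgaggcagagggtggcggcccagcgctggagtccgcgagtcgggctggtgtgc

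Counted from the start site as base 1, with the base before it as -1, the E-box spans -3 to 3 in Max, -40 to -35 in Mlx, -123 to -118 in Mnt and -219 to -214 in Mxd4. The Max start in RefSeq lies 47 bases upstream of the outermost exon used for counting. The Max promoter therefore carries the word across its annotated start, and the other 3 carry it upstream.

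The promoter of Mycn held no CACGTG but a cluster of E2F words, searched on both strands as TTTGGCGC, TTTCGCGC and TTTCCCGC. Any of these was present in 1.84% of all promoters, in 2.12% of all genes with a promoter and in 4.48% of the genes above 1 CPM. Mycn alone of the 9 members had a match, and it was itself not called above 1 CPM. E2F factors are the regulators of S phase entry. The Mycn promoter is shown with the E2F words in capitals, since this member had the lowest level and was the only one with a match. It lies at chr12:12941787-12942086 (minus strand), and the first 2 of its 3 matches overlap.
Mycn: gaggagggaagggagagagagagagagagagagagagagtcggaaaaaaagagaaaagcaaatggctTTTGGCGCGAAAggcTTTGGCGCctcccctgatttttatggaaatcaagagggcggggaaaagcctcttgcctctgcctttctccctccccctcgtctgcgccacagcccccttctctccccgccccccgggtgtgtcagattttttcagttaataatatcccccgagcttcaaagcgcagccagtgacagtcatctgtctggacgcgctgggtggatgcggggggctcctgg

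The 3 matches span -183 to -176, -179 to -172 and -168 to -161. The GC box GGGCGG, searched on both strands, was present in 7 of 9 members, all but Max and Mlx, against 70.7% of the genes above 1 CPM. The word CCAAT was found in 3 of 9 members (Mlx, Mxd4 and Mxd1), against 43.7% of those genes. TATAAA was found in none, against 7.85%. Mxd3 had 8 GC box matches, some of which share a base with the next, and Mxd1 had 6 together with 4 CCAAT matches.

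**Figure D1:**
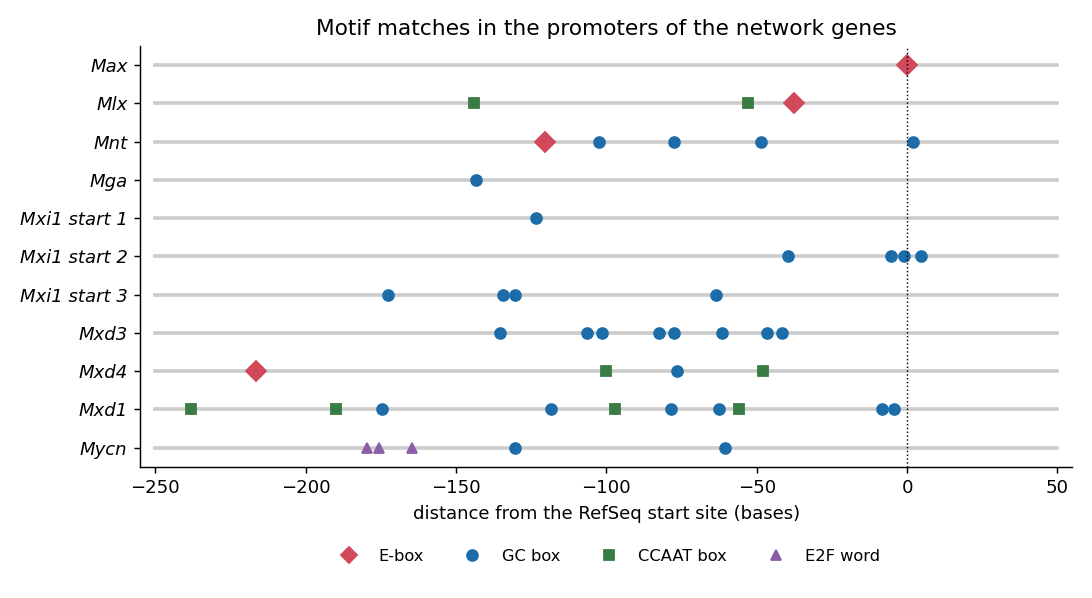
Positions of motif matches in 11 promoters of 9 network genes, in order of mean level, on an axis of distance from the RefSeq start site in bases, with a symbol for each motif at the centre of its match. The E-box lies at the start of Max, upstream in Mlx, Mnt and Mxd4, and nowhere in the other 5 genes.

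Of the 10 members, 9 lay above 1 CPM by limma's one-sided test, adjusted over all 23365 genes with a count, of which 47.4% were above 1 CPM and 48.3% below. Among the 15076 protein-coding genes with a count, which is the class of all 10 members, 69.3% were above. The members' median level was 21.6 TPM (CPM corrected for gene length), beside 14.2 TPM over the protein-coding genes and 1.8 TPM over all genes with a count. In TPM, 5 of the members (Myc, Max, Mlx, Mnt and Mga) lay above the protein-coding median. The highest and the lowest member were both MYC genes, Myc and Mycn.

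Myc (ENSMUSG00000022346.15, chromosome 15, 61985391 to 61990374, plus strand, mm10) is the growth regulator of the network. Its level was 623, 651, 697 and 669.5 TPM in replicates 1 to 4, from 23306 to 69676 counts per library. Replicate 3 was highest and replicate 1 lowest, a 1.10-fold range in CPM. The mean of 660.0 TPM ± 31.5 (SD, n = 4) placed Myc 201st of 23365 genes and 193rd of 15076 protein-coding genes. The protein-coding genes nearest to it in level were Trim28, Hsp90b1, Eif4g2, Uba1 and Shmt2, whose log2 TPM stayed within 0.0845 of that of Myc in every library. Trim28, the corepressor of KRAB zinc finger proteins, was the nearest at 655 TPM ± 28.3.

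Mycn (ENSMUSG00000037169.14, chromosome 12, 12936096 to 12941914, minus strand), the paralog best known from neural progenitors and neuroblastoma, was at the other end. It had 24, 33, 182 and 65 counts in replicates 1 to 4, which are 0.437, 0.760, 1.503 and 1.27 TPM. Replicates 3 and 4 were high and replicate 1 was low, and the 95% Poisson intervals of replicate 1 (0.270 to 0.628 CPM) and replicate 3 (1.22 to 1.65 CPM) did not overlap, though these cover counting error only. At 0.949 CPM ± 0.456 (SD, n = 4) Mycn was called neither above nor below 1 CPM, with a log2 level of -0.19 against the threshold (adjusted p = 0.516 below and 1 above, limma). Without replicate 1 that log2 level was 0.11 (adjusted p = 0.675). Myc exceeded Mycn in TPM in 4 of 4 libraries, by 464-fold to 1426-fold, and this range follows the counts of Mycn.

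Max (ENSMUSG00000059436.13, chromosome 12, 76937269 to 76962201, minus strand) encodes the common partner. It stood at 118, 115, 123 and 114 TPM in replicates 1 to 4, a mean of 117.5 TPM ± 4.01 (SD, n = 4), and the 4 libraries lay within a 1.06-fold range in CPM. Myc was higher than Max in 4 of 4 libraries, by 5.29-fold to 5.86-fold in TPM (mean log2 ratio 2.49 ± 0.06, adjusted p = 9.85e-07, limma on within-library differences to every gene with a count). Nearly any gene passes that test when set against Myc, since 99.7% of the 23364 others differed from it, and the size of the ratio is the informative value. The protein-coding genes nearest to Max in level were Copb2, Map7d1, Os9, Heatr3 and Adipor1, within a log2 TPM of 0.0422 in every library.

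Mlx (ENSMUSG00000017801.15, chromosome 11, 101087277 to 101092207, plus strand), the partner of the Mondo factors, was close to Max. It stood at 114, 111, 116 and 104 TPM in replicates 1 to 4, a mean of 111 TPM ± 5.27, with replicate 4 lowest. Max exceeded it in 4 of 4 libraries but by only 1.03-fold to 1.10-fold (log2 ratio 0.08 ± 0.04, 95% interval -0.03 to 0.19, adjusted p = 0.129). The ranges of these neighbours overlapped, and they were not told apart, although 98.3% of genes differed from Max. With the longest coding transcript as the gene length the log2 ratio was 0.94 (adjusted p = 1.87e-05), and without length correction 0.93 (adjusted p = 1.01e-05). The closeness of Max and Mlx was therefore seen with the exon length of the files and not with the other 2 treatments of length. Of the Mlx exons, 19.3% overlap Psmc3ip on the opposite strand, and the counting used strand.

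**Figure D2:**
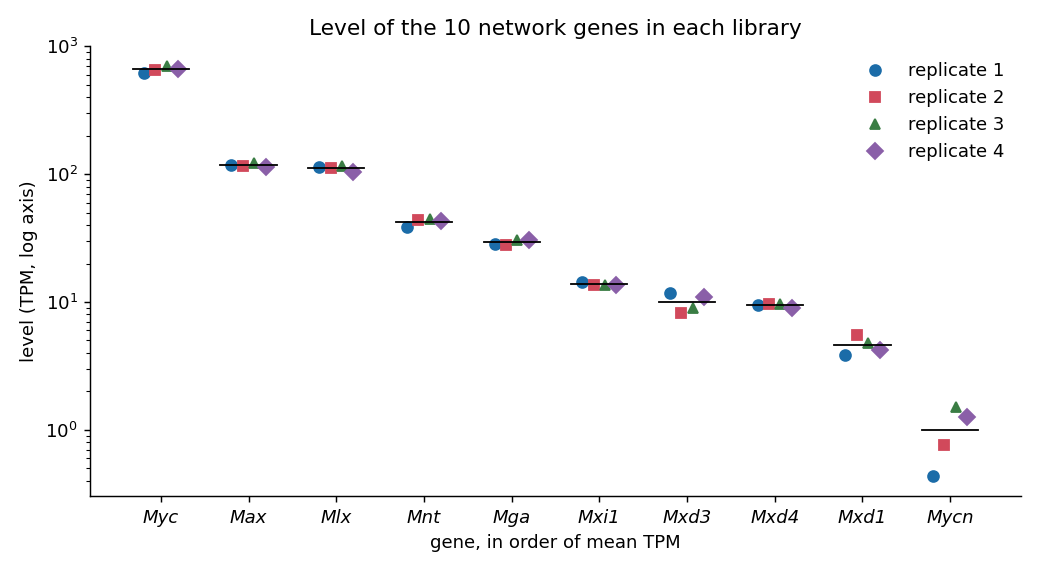
Level of each network gene in each library, as TPM on a log axis, with 1 symbol per replicate and a line at the mean of 4. Myc stands apart at 623 to 697 TPM, Max and Mlx overlap near 100 to 123 TPM, and Mycn has the widest spread, 0.437 to 1.503 TPM.

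The repressors MNT and MGA were the next in level. Mnt (ENSMUSG00000000282.12, chromosome 11, 74830920 to 74845725, plus strand), the gene of the MAX partner found in most tissues, stood at 38.4, 44.1, 44.9 and 42.9 TPM in replicates 1 to 4 (mean 42.6 ± 2.93, SD). Replicate 1 was below the other 3. Mga (ENSMUSG00000033943.15, chromosome 2, 119897228 to 119969581, plus strand), the gene of a large protein with a T-box as well as a MAX-binding domain, stood at 28.6, 28.1, 30.8 and 30.4 TPM (mean 29.5 ± 1.33). Mlx exceeded Mnt (log2 ratio 1.39 ± 0.13, adjusted p = 3.4e-05, limma) and Mnt exceeded Mga (0.53 ± 0.10, adjusted p = 0.00121), each in 4 of 4 libraries. Without length correction Mlx over Mnt was 0.18 (adjusted p = 0.0544). Of all other genes, 97.9% differed from Mlx and 95.8% from Mnt. Mga has the longest exons of the 10 members, 15340 bases, so in CPM it stood at 132 ± 5.14, above Max at 123 ± 3.41 and Mnt at 57.4 ± 3.63. Without length correction the log2 ratio of Mnt over Mga was -1.20 (adjusted p = 1.13e-05) and that of Mlx over Mga -1.02 (adjusted p = 2.44e-05).

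The 4 MXD genes were expressed together, at lower levels than Mnt. Mxi1 (ENSMUSG00000025025.13, chromosome 19, 53310506 to 53375810, plus strand), also known as Mxd2, stood at 14.3, 13.65, 13.6 and 13.6 TPM in replicates 1 to 4 (mean 13.8 ± 0.328, SD). Mxd4 (ENSMUSG00000037235.13, chromosome 5, 34173883 to 34187720, minus strand) stood at 9.45, 9.58, 9.61 and 9.00 TPM (mean 9.41 ± 0.284). Both were nearly even across the libraries, within 1.07-fold in CPM. Mxd3 (ENSMUSG00000021485.13, chromosome 13, 55325168 to 55329758, minus strand), the member known from S phase cells and neural progenitors, stood at 11.7, 8.24, 8.95 and 10.9 TPM (mean 9.96 ± 1.63). Mxd1 (ENSMUSG00000001156.9, chromosome 6, 86647042 to 86669161, minus strand), the member known from differentiating cells, stood at 3.86, 5.53, 4.73 and 4.22 TPM (mean 4.59 ± 0.725). These last 2 had mirrored orders: the libraries with the highest Mxd3 (replicates 1 and 4) had the lowest Mxd1, and replicate 2 had the lowest Mxd3 and the highest Mxd1. No such comparison was planned. Neither gene varied beyond genes of its abundance (unadjusted p = 0.154 for Mxd3 and 0.103 for Mxd1, edgeR goodness of fit). With 4 libraries no correlation was computed. Of the Mxd3 exons, 5.0% overlap Prelid1 on the opposite strand, which had 129688 counts in all against 1672 for Mxd3. The counting used strand, and any effect on the level of Mxd3 was not tested.

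Within the MXD genes the order depended on how length was treated. In TPM Mga exceeded Mxi1 (log2 ratio 1.09 ± 0.09, adjusted p = 4.75e-05, limma), Mxi1 exceeded Mxd3 (0.48 ± 0.22, adjusted p = 0.00873) and Mxd4 exceeded Mxd1 (1.03 ± 0.20, adjusted p = 0.000428), each in 4 of 4 libraries. Mxd3 exceeded Mxd1 as well (1.10 ± 0.45, adjusted p = 0.00178), but without length correction this ratio was -0.64 (adjusted p = 0.00172). Mxd3 and Mxd4 were not told apart (log2 ratio 0.07 ± 0.26, 95% interval -0.35 to 0.48, adjusted p = 0.717), and each was higher in 2 of 4 libraries. With the other lengths Mxd4 was the higher of them, by a log2 ratio of Mxd3 over Mxd4 of -0.41 with the longest coding transcript (adjusted p = 0.0498, limma) and -1.94 without length correction, where it was also called. Mxd1 was the lowest MXD gene and still exceeded Mycn (2.21 ± 0.68, adjusted p = 0.00028). The share of genes that differed was 96.9% against Mga, 96.9% against Mxi1, 94.5% against Mxd3, 96.9% against Mxd4 and 95.1% against Mxd1. With the longest coding transcript as length, Mxd4 led the 4 at 15.01 TPM ± 0.463, followed by Mxd3 at 11.4 ± 1.84, Mxi1 at 11.2 ± 0.235 and Mxd1 at 5.06 ± 0.809. The log2 ratio of Mxi1 over Mxd4, 0.55 ± 0.05 at the exon length of the files (adjusted p = 0.000273), was then -0.42 (adjusted p = 0.000617). That of Mxi1 over Mxd3 was then -0.01 (adjusted p = 0.936). Mxd4 is the gene for which the lengths differ most, 8483 bases of exon against 3872 bases in the longest coding transcript.

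**Figure D3:**
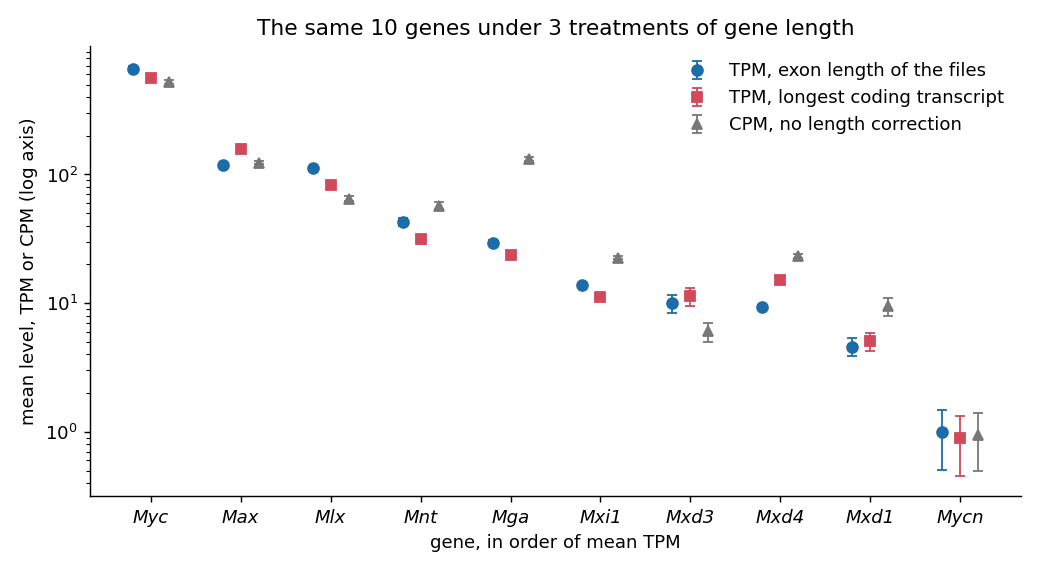
Mean level of each network gene, on a log axis, as TPM from the exon length of the files, as TPM from the longest coding transcript and as CPM without length correction, with bars for 1 SD over 4 libraries. Myc was highest and Mycn lowest under all 3, while Mga moved from 5th in TPM to 2nd in CPM and Mxd4 from 8th to 6th.

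Of the 45 pairs among the 10 members, 43 passed the test in TPM, including 7 of the 9 neighbours in the order. Only the neighbours Max and Mlx and the neighbours Mxd3 and Mxd4 did not, and these were also the only pairs whose ranges over the libraries overlapped. Over all genes, 94.5% (against Mxd3) to 99.7% (against Myc) differed from the member they were set against. The 43 of 45 is near that share, so the count says little of the network itself. With 4 libraries the smallest two-sided p of an exact sign-flip test is 0.125, so these calls rest on the spread pooled over genes.

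Set against all its competitors for MAX, Myc mRNA was in excess of their sum. The summed TPM of Mxd1, Mxi1, Mxd3, Mxd4, Mnt and Mga was 106, 109, 113 and 111 in replicates 1 to 4, and Myc plus Mycn exceeded it 5.86, 5.96, 6.21 and 6.05 times. That ratio averaged 6.02 ± 0.145 (SD, n = 4) and was not tested. It was 5.74 with the longest coding transcript as length and 2.09 without length correction. The 4 MXD genes made up 37.7 TPM ± 1.1 of the sum, with the rest from Mnt and Mga. Max itself was at 1.07 ± 0.0357 times the summed competitors and at 0.153 ± 0.00633 times the sum of all its partners, Myc included. The first of these was 0.492 without length correction and 1.63 with the longest coding transcript, and the second 0.159 and 0.2415. Myc alone held 66.01% ± 0.906 of the TPM of the 10 genes, Max 11.8% ± 0.346 and Mlx 11.2% ± 0.594. These are mRNA ratios and give no measure of the proteins.

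No member was called more variable between the replicates than genes of its abundance. Tested with edgeR for goodness of fit, with the dispersion set to its trend, 56 of 13279 genes were called variable (0.422%), and 0 of the 10 members, all of which passed the filter on low counts. With so small a share over all genes, 0 calls among 10 genes says little of the members. At an unadjusted p below 0.05 there were 770 genes, among them Mycn as the only member. Its unadjusted p was 0.00897 and its adjusted p 0.502 (edgeR goodness of fit). With 1 replicate left out, 33 to 40 genes and again 0 members were called, with the fewest genes without replicate 1. The biological coefficient of variation, edgeR's shrunken estimate of the spread between replicates beyond counting error, was 30.4% for Mycn, against a trend of 22.9% at its abundance. It was 12.7% for Mxd3 and 10.75% for Mxd1, against trends of 11.65% and 9.63%, and 4.1% for Max, against 4.41%. Mycn, Mxd3, Mxd1 and Mnt lay above their trend, and the other 6 members lay below it. The median over all 13279 genes was 6.53%, and 4 of the 10 members, Mycn, Mxd3, Mxd1 and Myc, were above that.

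**Figure D4:**
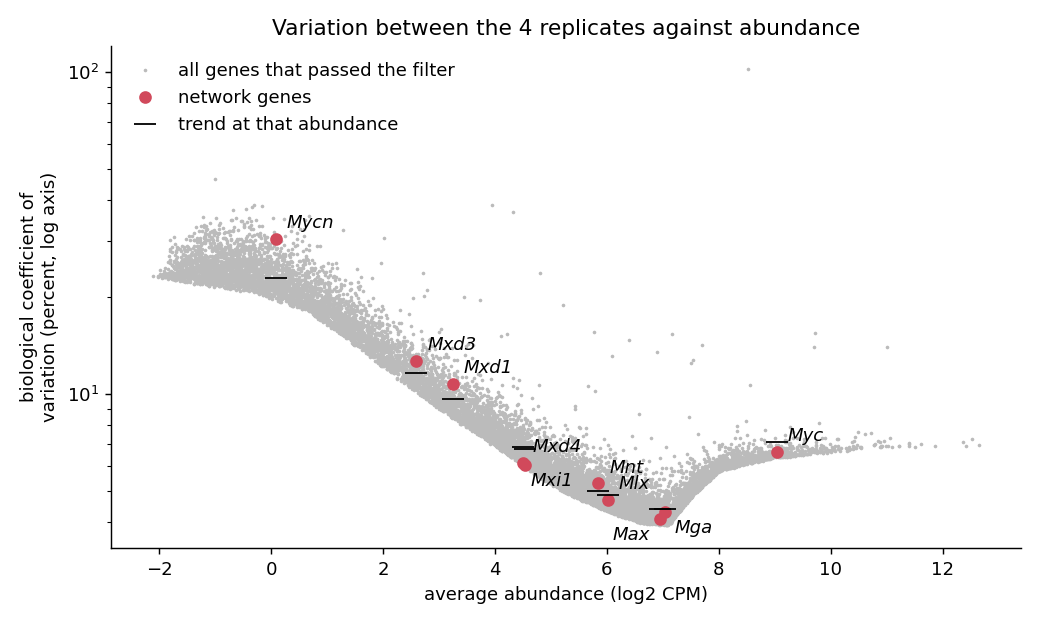
Biological coefficient of variation in percent (log axis) against average log2 CPM for 13279 genes (grey), with the network genes in red and a dash at the trend of each one's abundance. Of the members, Mycn stands highest at 30.4%, 118th of the 13279 genes, and Max lowest at 4.1%. Neither was called variable for its abundance.

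Of 9 other genes of the wider network, 7 lay above 1 CPM (77.8%, beside 69.3% of protein-coding genes) and 2 below. Bmyc, a mouse gene related to Myc, was highest at 190 TPM ± 8.71 (SD, n = 4), followed by Zbtb17, which encodes the MYC partner MIZ1, at 69.7 ± 4.19. The E-box factor genes Usf2 and Usf1 stood at 66.7 TPM ± 2.41 and 56.1 ± 1.75. The third MYC gene, Mycl, was lowest, with 0, 0, 29 and 10 counts in replicates 1 to 4. It was thus counted in the 2 libraries with the most Mycn, of which replicate 3 was also the deepest library. That match was seen after the fact, rests on few counts and was not tested. Of the Mondo partners of Mlx, Mlxip stood at 36.8 TPM ± 2.31 and Mlxipl at 0.197 ± 0.114. Mlxip was chosen after its values were seen.

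All 12 listed corepressor genes of MXD and MNT lay above 1 CPM, beside 69.3% of protein-coding genes, with a median of 70.2 TPM. The histone-binding genes Rbbp7 and Rbbp4 led at 546 TPM ± 11.3 and 167 ± 2.1, followed by the deacetylase gene Hdac1 at 149.5 ± 3.62 and the corepressor gene Ncor1 at 97.0 ± 3.37. The lowest were Suds3 at 31.5 TPM ± 1.56 and Ing2 at 16.9 ± 0.67. All 12 coactivator genes of MYC also lay above 1 CPM, with a median of 97.6 TPM. Ruvbl2 and Ruvbl1, genes of the ATPases of the TIP60 complex, led at 319 TPM ± 12.1 and 186 ± 7.92. The chromatin adaptor gene Wdr5 stood at 145 ± 2.0. The lowest were the elongation cyclin gene Ccnt1 at 55.6 TPM ± 2.49 and the acetyltransferase gene Ep300 at 44.1 ± 2.95.

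All 14 listed genes of the PRC1.6 complex around MGA lay above 1 CPM, again beside 69.3% of protein-coding genes, with a median of 49.7 TPM, and Hdac1, Hdac2 and Wdr5 also belong to the cofactor lists. Tfdp1, the E2F dimer partner gene, led at 321 TPM ± 6.86, and Hdac2 stood at 96.15 ± 2.33. Tfdp2 at 12.25 TPM ± 1.39 and the Polycomb adaptor gene Rybp at 9.2 ± 0.538 were lowest. Of the genes that set the stability of the MYC protein, 14 of 14 lay above 1 CPM, with a median of 64.65 TPM. The kinase gene Gsk3a, whose product marks MYC for degradation, led at 233.5 TPM ± 6.25. The mitotic kinase gene Aurka followed at 172 ± 1.41, and the ubiquitin ligase gene Stub1 at 163.5 ± 4.57. The ligase gene Skp2 and the deubiquitinase gene Usp28 were lowest at 13.9 TPM ± 0.381 and 13.65 ± 0.994.

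All 28 classic MYC targets lay above 1 CPM, beside 69.3% of protein-coding genes, with a median of 425 TPM beside 14.2 TPM over the protein-coding genes. Ldha, which encodes a lactate dehydrogenase subunit, led at 3870 TPM ± 50.3 (SD, n = 4), followed by the nucleolar gene Npm1 at 2451 ± 47.3. Odc1, the first enzyme gene of polyamine synthesis, stood at 1680 ± 29.3 and the mitochondrial chaperonin gene Hspd1 at 1499 ± 22.8. The ribosome biogenesis gene Wdr12 at 36.1 TPM ± 0.489 and the telomerase gene Tert at 14.6 ± 0.958 were lowest. Of the 21 targets with a promoter in the table, 6 held CACGTG (28.6%), beside 12.2% of the genes above 1 CPM and 8.09% of the genes in the table. This list holds genes known to be abundant in dividing cells, and without a second condition its level says nothing of how it depends on Myc.

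Of 5 genes that MYC is known to repress with MIZ1, 3 lay above 1 CPM and 2 below, a share of 60% beside the 69.3% of protein-coding genes. The cell cycle inhibitor gene Cdkn1a was the highest of them at 603.5 TPM ± 29.2, while Cdkn1b stood at 23.2 ± 1.8 and the stress gene Gadd45a at 4.8 ± 0.527. Cdkn1c and Cdkn2b, also inhibitor genes, stood at 0.722 TPM ± 0.149 and 0.282 ± 0.237. These levels ranged widely, and the list's median was 4.8 TPM. Of 4 target genes of the Mondo factors with MLX, 2 lay above 1 CPM and 2 below, a share of 50% beside the same 69.3%. The lipogenic enzyme gene Fasn stood at 433 TPM ± 29.01 and Txnip, the gene of a thioredoxin inhibitor induced by glucose, at 58.65 ± 1.42. Arrdc4, related to Txnip, stood at only 0.442 TPM ± 0.114, and the pyruvate kinase gene Pklr had 1 count in all.

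**Figure D5:**
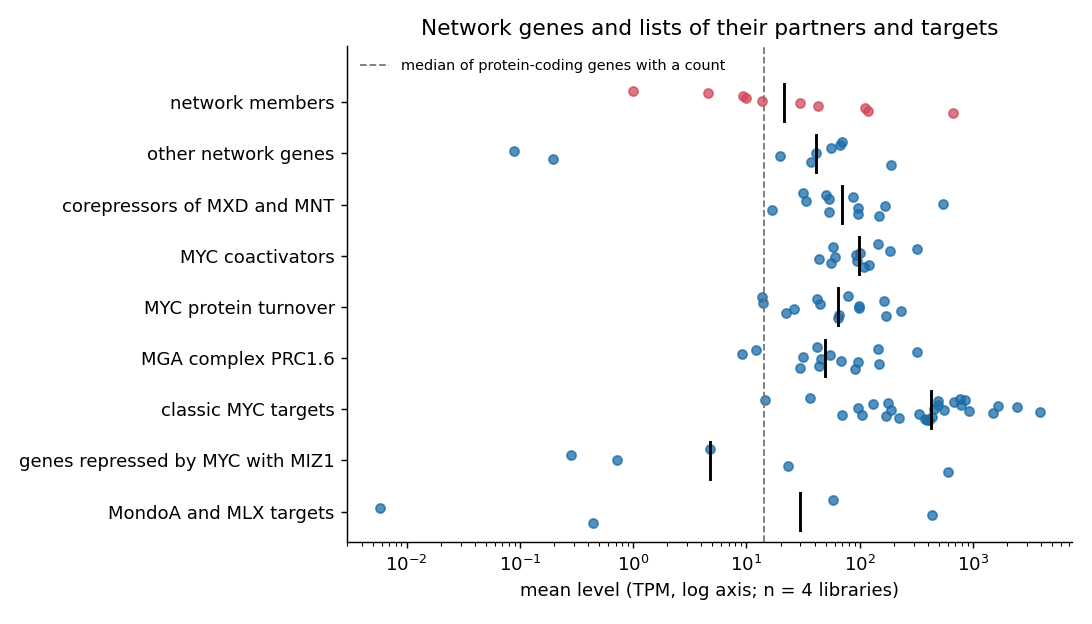
Mean TPM over 4 libraries (log axis) of each gene of the network and of 8 lists of partners, cofactors and targets, with 1 point per gene, a bar at the list's median and a dashed line at the median of protein-coding genes. Classic MYC targets had the highest median, 425 TPM, and the genes repressed by MYC with MIZ1 the lowest, 4.8 TPM.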

How the data were processed

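RNA of 4 T-cell libraries was sequenced. Per the file headers, the authors made the deposited counts with featureCounts 1.4.6-p4 from STAR alignments: whole read pairs over exons of GENCODE M13, both ends mapped, strand option 2, with no option for multi-overlap or multi-mapping set. The build is mm10 per the labels. Each gene's exon length in bases is also deposited. Whether the RNA was total or polyadenylated is stated differently by the labelled assay and its protocol. The sources used here do not give the STAR version or trimming.

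Symbols came from GENCODE M21 and matched 99.6% of genes. CPM was computed from all assigned counts and TPM from counts and exon length. Levels were tested with limma 3.58.1 on log2(CPM + 0.1) against 1 CPM (empirical Bayes with trend, one-sided), over genes with a count. Pairs were tested with limma on within-library differences of log2(TPM + 0.1), 1 fit per member over all genes, two-sided. The pseudocount pulls ratios over Mycn toward 0. Variation used edgeR 4.0.16 (TMM scaling, filterByExpr, goodness of fit). All p-values were Benjamini-Hochberg adjusted over the genes of each fit, with calls below 0.05. Alternatives were DESeq2 1.42.0 size factors, other pseudocounts, thresholds, filters and lengths, thinning to the shallowest library, and leaving out each replicate. The tests were tried on counts simulated with the same baseline dispersion for every gene. In the data the trend of the biological coefficient of variation ran from 4.38% to 25.4%, so the trial says little of low members such as Mycn. R 4.3.3, python 3.11.15 and blastn 2.17.0+ were used, and blastn found no transcript of another gene nearly identical to one of a member. Replicate pairs differed beyond sampling noise (chi-square over its degrees of freedom 8.3 to 26.3). This comparison sets counts against sampling noise only, so it cannot show that the libraries are independent samples. The tests took n = 4, and whether the libraries came from different animals was not tested.

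The members and lists were chosen with earlier results of these data known. Named were all members, the 4 highest and 2 lowest of each list in TPM and the 5 protein-coding genes nearest to Myc and Max in level. Some genes that this rule names are not reported here.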

Additional observations from a re-analysis of the deposited data

Results flagged for a closer look

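Of 104 values screened over the 4 libraries, 4 had 1 library so far from the other 3 that the gap passed Dixon's 95% critical value for 4 samples, and chance flags about 1 in 20. No network member, pair or sum was among them. Zbtb17, the MIZ1 gene, stood at 86.3 CPM in replicate 1, against 75.4 to 76.8 CPM in the others. Rbbp4 stood at 434.5 CPM in replicate 1, against 420.6 to 422 CPM. Cdkn1c stood at 0.562 CPM in replicate 4, against 0.368 to 0.399 CPM. Pklr had its only count in replicate 2 (0.0222 CPM), which is under the limit that a count of 0 allows.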

How the results depend on the processing

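The 9 members above 1 CPM remained 9 in number under TMM and DESeq2 scaling, other pseudocounts, the expression filter, thinning, thresholds of 2 CPM and 1 TPM and without each replicate, and all genes above 1 CPM numbered 11009 to 11098 when 1 replicate was left out. The log2 level of Mycn was 0.11 without replicate 1, and at a threshold of 2 CPM it lay below (-1.12, adjusted p = 0.00294). Length moved most. Without length correction the ratio of Myc plus Mycn over the competitors was 2.09, Max over its partners 0.159, Max over the competitors 0.492 and the share of Myc 54.3%, and with the longest coding transcript 5.74, 0.2415, 1.63 and 62.2%. Log2 ratios that changed sign without length correction were Max over Mga (-0.10, no longer called, adjusted p = 0.0894), Mlx over Mga (-1.02), Mnt over Mga (-1.20), Mxi1 over Mxd4 (-0.0443, no longer called, adjusted p = 0.381), Mxd3 over Mxd4 (-1.94) and Mxd3 over Mxd1 (-0.64), and Mlx over Mnt also lost its call (0.18, adjusted p = 0.0544). With the longest coding transcript they were Mxi1 over Mxd3 (-0.00849, no longer called, adjusted p = 0.936), Mxi1 over Mxd4 (-0.42) and Mxd3 over Mxd4 (-0.41). The uncalled ratio of Mxd3 over Mxd4 was -0.0304 after thinning, and with 1 replicate left out it ranged from -0.0137 to 0.161 (without replicate 1 it was -0.0137). Without length correction and with the longest coding transcript, Max over Mlx passed the threshold (0.93 and 0.94), as did Mxd3 over Mxd4 with its sign changed. The cause of these changes was not tested. Genes called variable numbered 33 to 40 with 1 replicate left out (33 without replicate 1, 37 without replicate 3 and 37 without replicate 4), against 56 with all. Why fewer were called was not tested. Members called variable were 0 throughout. Genes were compared within each library, but no pairing of samples between groups was possible because the labels give 1 group. Low counts limit the values of Mycn most among the members, and those of Mycl, Cdkn2b and Pklr among the listed genes. The share of isoforms, which sets the length of each gene, was not measured.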
